A study of Mus musculus with 20 samples.

Results

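A1bg, Eci3 and Olig1 were among the genes most strongly lowered in the livers of female mice given oral combined contraceptives (OC). Acss3 was lowered less, at rank 283 of 10207 genes in sedentary mice and rank 41 in running mice. The levels of all 4 genes were followed library by library. The 4 genes were chosen by name, with earlier results of the same libraries in view, because they were strongly lowered on the OC diet. They are 4 of the 10207 genes tested and of the 23993 genes whose lines in the deposited table were intact. The OC differences therefore chose the genes, and they are given below as a description with standard errors and no test.

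RNA was extracted from the livers of 20 female mice, 1 animal per library, and sequenced as stranded paired-end mRNA libraries. Each of the 4 groups held 5 mice: sedentary on vehicle diet (Con.Sed), on vehicle diet with voluntary wheel running (Con.VWR), sedentary on OC diet (OC.Sed), and on OC diet with running (OC.VWR). The labels give no strain, age, contraceptive compound, dose or length of treatment, and they name no batch. Total counts ran from 10883936 to 16134618 per library.

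The tissue was checked against 9 intact hepatocyte markers, whose summed level was 91090 to 205700 CPM (counts scaled to a common library size). On the second principal component of log2 CPM, Con.Sed replicate 2 had a score of -53.0 and the other 19 libraries lay between -11.2 and 17.1, so that library stood apart. Several results that rest on this library are given with and without it.

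The 4 genes act in different processes. Eci3 encodes a peroxisomal enoyl-CoA isomerase, which moves the double bond of unsaturated fatty acids so that beta-oxidation can go on, and is a rodent relative of Eci2. Acss3 encodes a mitochondrial short-chain acyl-CoA synthetase that, in work on rat liver, prefers propionate. A1bg encodes a secreted plasma glycoprotein of the immunoglobulin superfamily and is known in mouse liver as a gene with higher expression in females than in males, a class of genes kept on largely by the female pattern of growth hormone secretion. Olig1 encodes a basic helix-loop-helix transcription factor best known from the oligodendrocyte lineage of the brain.

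RefSeq promoter windows, 250 bases before to 50 after the annotated start on GRCm38.p6, were matched by symbol. Windows were found for 2 of the 4 genes, A1bg and Eci3, and both are shown. The set of windows used held none for Acss3 and Olig1. The A1bg window is chr15:60921221-60921520 and the Eci3 window is chr13:34963760-34964059, both on the minus strand and printed 5′ to 3′ in the direction of the gene. The RefSeq start of A1bg lies 1742 bases inside the gene as the GENCODE annotation used below gives it, so the A1bg window is within that gene; the 2 starts of Eci3 lie 1 base apart. Capitals mark matches to 5 motifs searched on both strands.
A1bg: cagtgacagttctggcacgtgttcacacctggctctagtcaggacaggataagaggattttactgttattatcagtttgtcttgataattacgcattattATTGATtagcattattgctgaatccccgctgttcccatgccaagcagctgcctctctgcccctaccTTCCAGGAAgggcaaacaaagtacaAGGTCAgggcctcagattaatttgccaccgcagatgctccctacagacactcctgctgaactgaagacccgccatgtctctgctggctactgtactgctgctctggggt
Eci3: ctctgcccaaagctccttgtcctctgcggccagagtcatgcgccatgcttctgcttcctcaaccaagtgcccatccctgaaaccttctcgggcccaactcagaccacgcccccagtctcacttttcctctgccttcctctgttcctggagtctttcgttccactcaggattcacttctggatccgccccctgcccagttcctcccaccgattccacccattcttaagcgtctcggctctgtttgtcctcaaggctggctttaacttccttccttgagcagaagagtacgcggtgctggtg

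In the A1bg window the HNF6 core ATTGAT began at base -150, the STAT palindrome TTCNNNGAA at -84 and the nuclear receptor motif AGGTCA at -59, counted from the RefSeq start. Among 32851 promoter windows of the same length, 7.54% held ATTGAT, 8.30% held TTCNNNGAA and 16.3% held AGGTCA. The steroid receptor motif AGAACA, present in 18.97% of windows, and the oestrogen response element (GGTCA and TGACC with 3 bases between them), present in 0.070%, were not found in the A1bg window. AGGTCA ends in the GGTCA of that element. The Eci3 window held none of the 5 motifs. Its GC content was 56.7% with 11 CpG dinucleotides, against 49% and 5 in the A1bg window. A match is a description of the letters and not a binding site.

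Eci3 (ENSMUSG00000021416, chr13:34946614-34963810, minus strand, GENCODE vM21 on GRCm38) was nearly absent from OC livers. The sedentary vehicle libraries held 24, 8, 22, 28 and 52 counts, and the running vehicle libraries 74, 51, 54, 60 and 35. The sedentary OC libraries held 0, 1, 3, 0 and 5 counts, and the running OC libraries 0, 1, 2, 1 and 3. Every OC library was below every vehicle library, and the lowest vehicle value, 8 counts, was that of Con.Sed replicate 2. In 3 of the OC libraries there was no count at all, which allows up to 3 counts each, or 0.203 to 0.221 CPM.

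The mean level of Eci3 was 2.20 ± 1.44 CPM (SD, n = 5) in sedentary and 3.84 ± 0.933 CPM in running vehicle mice. It was 0.137 ± 0.169 CPM in sedentary and 0.0950 ± 0.0720 CPM in running OC mice. The fitted log2 fold change of OC over vehicle was -3.98 (SE 0.59) in sedentary mice, 15.8-fold lower, and -5.17 (SE 0.58) in running mice, 35.96-fold lower. The OC libraries held 9 and 7 counts in all, so the ratios of summed counts, 16.8 and 39.1, had wide 95% intervals for counting error, 8.62 to 37.7 and 18.7 to 98.1. Leaving out OC.Sed replicate 5, which held 5 of these counts, moved the sedentary value to -4.79.

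Eci3 lies 13938 bases from Eci2, its close relative, which was counted far more highly. Per kilobase of exon, mean Eci2 levels in sedentary vehicle mice were 63.6 CPM per kb and those of Eci3 1.55. Eci2 encodes the enzyme with the same activity in peroxisomes and mitochondria, and it did not pass the edgeR quasi-likelihood test, with log2 fold changes of -0.25 (SE 0.18, adjusted p = 0.344) in sedentary and -0.02 (SE 0.18, adjusted p = 0.952) in running mice. The longest stretch of identical bases in their transcripts was 121 bases, and 86.7% of 1154 aligned bases were identical. How the authors assigned reads that match both genes is not given in the sources used here, so the few Eci3 counts in OC livers are uncertain as a level. Markers of kidney, where Eci3 is known to be abundant in mice, were near 0. Of 13 kidney tubule markers 6 were intact, Umod, Kap and Aqp2 were at 0 in all 20 libraries, and the 6 together reached at most 0.348 CPM in vehicle and 1.16 CPM in OC libraries.

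Acss3 (ENSMUSG00000035948, chr10:106933517-107123668, minus strand) had the smallest change with OC of the 4 genes. Its levels were 64.3, 50.8, 75.0, 66.3 and 79.8 CPM in the sedentary vehicle libraries and 106, 81.0, 89.0, 99.5 and 90.4 CPM in the running vehicle libraries. On the OC diet they were 31.1, 32.2, 34.9, 41.5 and 34.4 CPM in sedentary and 23.6, 30.2, 22.2, 40.0 and 30.1 CPM in running mice. All 10 OC libraries were below all 10 vehicle libraries, and every running vehicle library was above every sedentary one, while the OC groups overlapped.

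The group means of Acss3 were 67.3 ± 11.2, 93.3 ± 9.88, 34.8 ± 4.03 and 29.2 ± 7.04 CPM (SD, n = 5 each) in sedentary vehicle, running vehicle, sedentary OC and running OC mice. The fitted log2 change with OC was -0.95 (SE 0.14), 1.93-fold lower, in sedentary mice and -1.67 (SE 0.14), 3.19-fold lower, in running mice. The gap between these values is the fitted interaction, -0.72 (SE 0.20), which stayed between -0.86 and -0.64 when each library was left out in turn. It rests on the libraries that chose the gene and was not tested. Leaving out any library kept the change with OC between -1.04 and -0.89 in sedentary and between -1.81 and -1.59 in running mice.

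Acss3 ranked between its relatives by level. Per kilobase of exon, sedentary vehicle livers held 28.4 CPM per kb of Acss2, the cytosolic acetyl-CoA synthetase, 9.35 of Acss3 and 0.262 of Acss1, the mitochondrial acetyl-CoA synthetase. Acss1 did not pass the edgeR test in either activity group, with adjusted p = 0.749 and 0.574. Acss2 had a log2 fold change of -0.51 (SE 0.45, adjusted p = 0.464, edgeR) in sedentary mice and fell in running mice, with -1.45 (SE 0.46, adjusted p = 0.0394). That call was lost in 8 of 25 alternatives: with limma voom, and when Con.VWR replicate 3 or 4 or any OC.VWR replicate was left out. The annotated end of Acss3 overlaps Ppfia2 on the other strand over 2436 bases, and Ppfia2 was not analysed here.

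A1bg (ENSMUSG00000022347, chr15:60896859-60923012, minus strand) was the most variable of the 4 genes. Its levels were 10.9, 106, 11.2, 13.3 and 14.7 CPM in the sedentary vehicle libraries and 131, 15.7, 42.4, 69.5 and 30.6 CPM in the running vehicle libraries. They were 2.55, 2.86, 3.69, 2.37 and 4.27 CPM in the sedentary OC libraries and 0.957, 0.351, 0.746, 13.7 and 1.76 CPM in the running OC libraries. Within each activity group every OC library was below every vehicle library. Across all 20 the groups overlapped, because OC.VWR replicate 4 lay above Con.Sed replicates 1, 3 and 4.

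**Figure D1:**
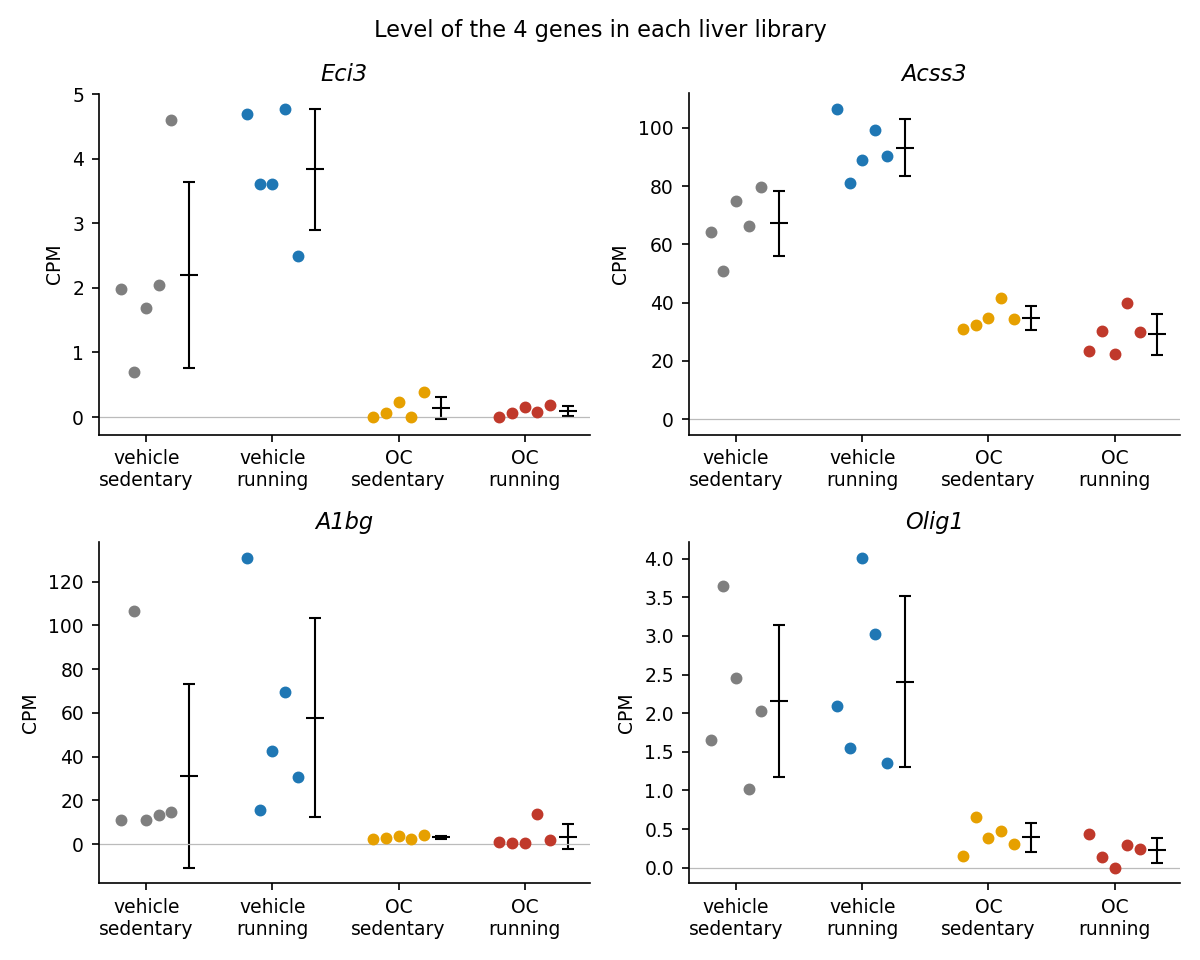
Level of each gene in CPM (y axis, linear) in every library, by group (x axis); the black mark and bar beside each group are the mean and SD of 5 mice. Eci3, Acss3 and Olig1 separate the diets in all 20 libraries, and A1bg has a high value of 106 CPM among sedentary vehicle mice and of 13.7 CPM among running OC mice.

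The mean A1bg level was 31.3 ± 42.0 CPM (SD, n = 5) in sedentary and 57.8 ± 45.4 CPM in running vehicle mice. It was 3.15 ± 0.803 CPM in sedentary and 3.50 ± 5.72 CPM in running OC mice. The fitted log2 change with OC was -3.31 (SE 0.83) in sedentary mice, 9.94-fold lower, and -4.06 (SE 0.83) in running mice, 16.7-fold lower. These sizes depended on the libraries at the top of their groups: without Con.Sed replicate 2 the sedentary value was -1.996, and without OC.VWR replicate 4 the running value was -5.87. Around the group means, the SD of A1bg log2 CPM was 1.28 on vehicle and 1.33 on OC, ranks 33 and 28 from the highest of 10207 genes. The median of this SD over all genes was 0.23 on vehicle and 0.22 on OC. Its fitted biological coefficient of variation was 0.827, and the trend for genes of its level was 0.159.

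The high A1bg value of Con.Sed replicate 2 was not shared by most genes of its class. Of 10 other female-biased liver genes tested, 7 were at their lowest of the group in this library, among them Cux2, a female-specific transcription factor of liver, at 34.2 CPM, where the others had 87.5 to 141 CPM. Prom1 was at its highest of the group there, as was A1bg. In OC.VWR replicate 4, by contrast, 7 of the 10 were at their highest of the group, including Cux2 at 70.8 CPM, where the other 4 mice had 7.73 to 26.7 CPM. The part of these libraries' other differences in the A1bg values was not tested.

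**Figure D2:**
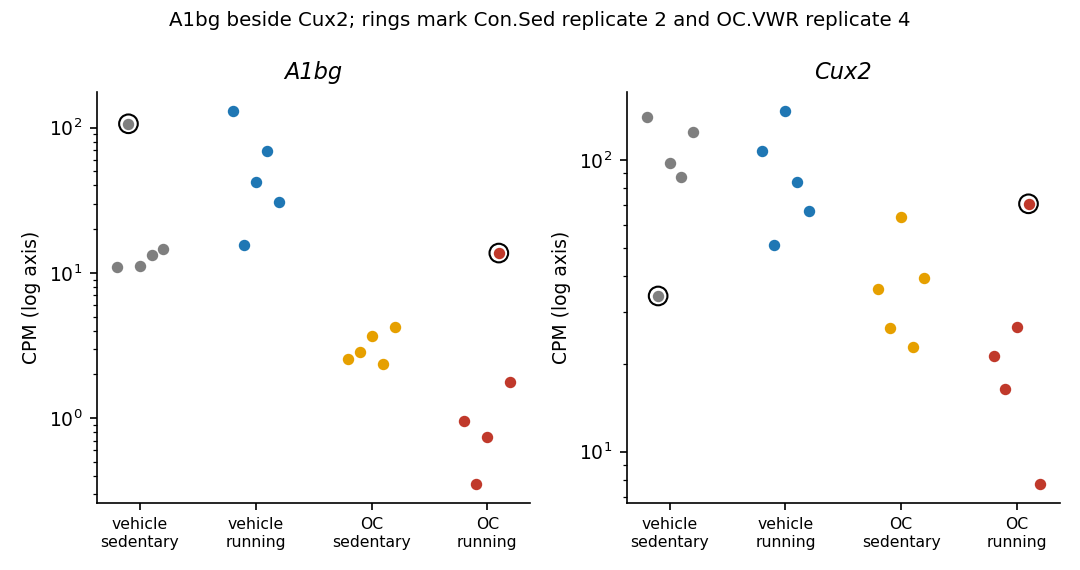
CPM on a log axis (y) of A1bg and Cux2 in every library by group (x); rings mark Con.Sed replicate 2 and OC.VWR replicate 4. In the ringed vehicle library A1bg is highest and Cux2 lowest of its group, and in the ringed OC library both are highest of their group.

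An antisense gene, 4930402D18Rik, overlaps A1bg over 10039 bases and had 0 to 11 counts per library. The strand setting of the authors' counting is not given in the sources used here, so reads of the 2 genes could not be told apart. Its highest count, 11, was in Con.Sed replicate 2, where A1bg had 1224. In OC libraries it had 0 counts in sedentary mice, where A1bg had 35 to 55, and 0 to 1 in running mice, where A1bg had 5 to 187.

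Olig1 (ENSMUSG00000046160, chr16:91269772-91271933, plus strand) was a gene of low counts in every group. The vehicle libraries held 20, 42, 32, 14 and 23 counts in sedentary and 33, 22, 60, 38 and 19 in running mice. The OC libraries held 2, 10, 5, 7 and 4 counts in sedentary and 6, 2, 0, 4 and 4 in running mice. Every vehicle library was above every OC library, and the groups of the same diet overlapped.

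Mean Olig1 levels were 2.16 ± 0.984 and 2.41 ± 1.11 CPM (SD, n = 5) in sedentary and running vehicle mice, and 0.393 ± 0.188 and 0.224 ± 0.166 CPM in sedentary and running OC mice. The fitted log2 change with OC was -2.41 (SE 0.45), 5.30-fold lower, in sedentary mice and -3.37 (SE 0.48), 10.4-fold lower, in running mice. The summed counts, 131 against 28 and 172 against 16, gave ratios of 5.30 and 10.7, with 95% intervals for counting error of 3.50 to 8.28 and 6.42 to 19.2.

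The Olig1 counts came without those of its neighbours in the genome or in the oligodendrocyte. Olig2, 41095 bases away and the partner of Olig1 in the oligodendrocyte lineage, had 0 counts in all 20 libraries, as had Olig3, Nkx2-2 and Mog, the myelin oligodendrocyte glycoprotein. Sox10, which defines the lineage, had at most 2 counts in a library. Of 17 other glial markers 11 were intact and summed to 39.6 to 61.8 CPM in vehicle and 55.3 to 74.1 CPM in OC libraries. Only 3 of them were tested, and Myrf, the myelin regulatory factor, rose by 0.42 (SE 0.11, adjusted p = 0.0127, edgeR) on the log2 scale in sedentary mice, a call lost without OC.Sed replicate 1. Myrf made up most of the summed glial level, with group means of 45.2 to 62.0 CPM. Mbp, which encodes myelin basic protein, did not pass in either activity group, and the medians of the 3 were 0.09 and 0.04.

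Set side by side, all 4 genes had non-overlapping diets within sedentary mice, where 4.01% of the genes tested had every OC library below every vehicle library, and within running mice, where 4.95% did. Across all 20 libraries 3 of the 4 did so, all but A1bg, against 0.843% of genes. These counts describe the choice of the genes. In the order of fitted change from the most lowered gene of 10207, Eci3 had rank 5, A1bg rank 9, Olig1 rank 25 and Acss3 rank 283 in sedentary mice. In running mice Eci3 had rank 2, A1bg rank 6, Olig1 rank 8 and Acss3 rank 41. All 4 had a more negative value in running than in sedentary mice, and the fitted interactions were -1.18 (SE 1.05) for Eci3, -0.97 (SE 0.70) for Olig1, -0.74 (SE 1.15) for A1bg and -0.72 (SE 0.20) for Acss3. In bulk liver RNA, fewer cells of a type and less RNA per cell cannot be told apart.

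**Figure D3:**
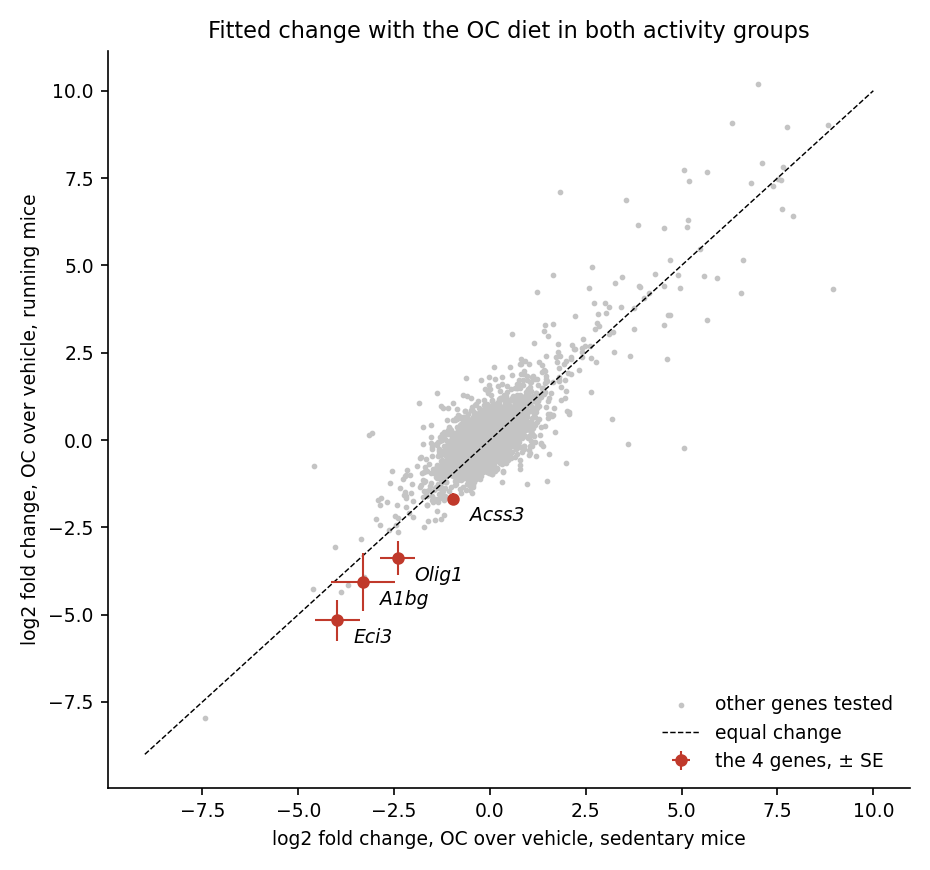
Fitted log2 fold change of OC over vehicle in sedentary mice (x) against running mice (y) for the 10207 genes tested; red points are the 4 genes with standard errors, and the dashed line marks equal change. The 4 genes lie below the line of equal change.

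The immediate neighbours in these orders were the following, with their fitted log2 changes. In sedentary mice Eci3 stood between Krt23, a keratin, at -4.05 and Pnpla5, a lipase of the patatin-like family, at -3.89, and Olig1 between Acot2, a mitochondrial acyl-CoA thioesterase, at -2.42 and Raet1d at -2.40. A1bg stood between Tcf24 at -3.35 and Gm11695 at -3.29, and Acss3 between Astn2 and Ptafr, both at -0.95. In running mice Eci3 was followed by Pnpla5 at -4.36, and Acss3 stood between Cux2 at -1.68 and Defb1 at -1.67.

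Wheel running, averaged over the diets, is the comparison of these genes that the choice did not use. None of the 4 passed the edgeR quasi-likelihood test, and neither did any other gene: 0 of 10207 were called (0%), with 496 at an unadjusted p under 0.05, 0 calls by limma voom and 2 by DESeq2. The fitted log2 change of running over sedentary was 0.52 (SE 0.57, adjusted p = 0.988) for A1bg, 0.21 (SE 0.58, adjusted p = 0.999) for Eci3, 0.11 (SE 0.10, adjusted p = 0.978) for Acss3 and -0.32 (SE 0.35, adjusted p = 0.988) for Olig1. The 95% interval for Acss3, -0.10 to 0.32, is narrow. Those of A1bg, -0.67 to 1.71, and Eci3, -0.996 to 1.42, are wide. The sign for A1bg rested on 1 library, since without OC.VWR replicate 4 the value was -0.39 (adjusted p = 0.998).

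Within each diet the running values are given without a test, because they share libraries with the choice. On vehicle they were 0.89 (SE 0.70) for A1bg, 0.80 (SE 0.39) for Eci3, 0.47 (SE 0.14) for Acss3 and 0.16 (SE 0.37) for Olig1. On OC they were 0.15 (SE 0.91), -0.38 (SE 0.93), -0.25 (SE 0.14) and -0.81 (SE 0.60) in the same order. Acss3 was the only gene of the 4 whose running vehicle libraries all lay above the sedentary ones, as did 1.09% of the genes tested. On OC none of the 4 had this separation, against 0.304% of genes. Without Con.Sed replicate 2 the A1bg value on vehicle was 2.21, and without OC.VWR replicate 4 its value on OC was -1.67. Without OC.Sed replicate 5 the Eci3 value on OC was 0.42, so its sign there rested on that library.

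**Figure D4:**
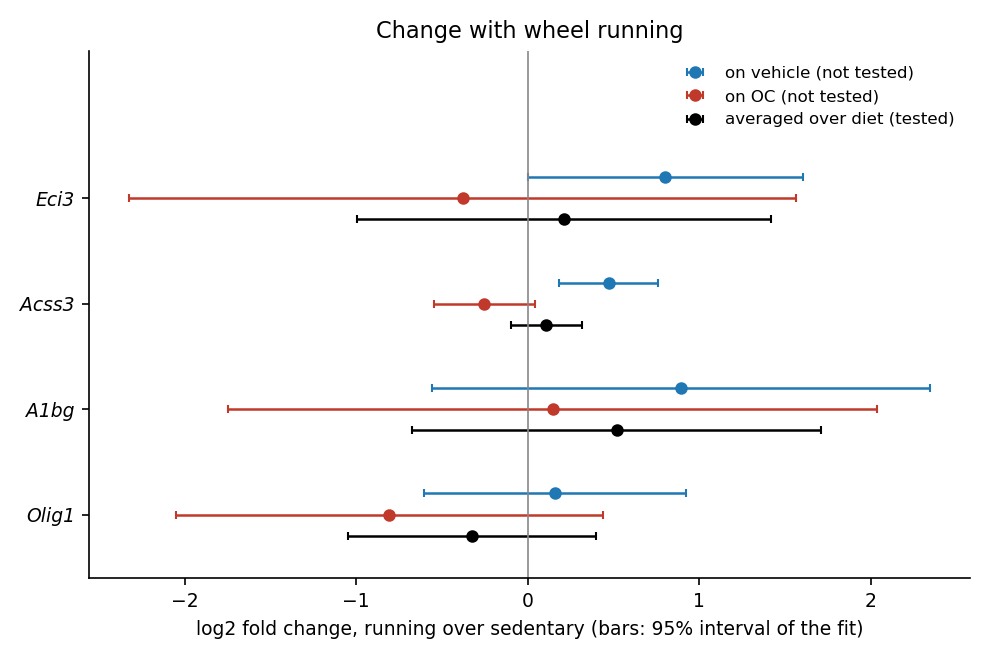
Fitted log2 fold change of running over sedentary (x) for each gene (y), on vehicle, on OC and averaged over diet; bars are 95% intervals of the fit. The averaged values lie between -0.32 and 0.52 and all their intervals include 0.

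Mouse by mouse, the 4 genes did not move together in a way that passed a test. Correlations of log2 CPM after subtracting the mean of each activity group were computed for the 6 pairs in each diet, 12 in all, over 10 libraries each. The highest was that of Eci3 and Acss3 on vehicle, with Pearson's r = 0.81 (exact permutation p = 0.0254, adjusted p = 0.305) and Spearman's rho = 0.68 (exact permutation p = 0.0506, adjusted p = 0.342). It was 0.77 without the 2 libraries farthest from the median and 0.59 without Con.Sed replicate 2. A1bg and Acss3 on vehicle had r = -0.22 with all libraries and 0.79 without Con.Sed replicate 2 (exact permutation, adjusted p = 0.0792). None of the 12 pairs passed after adjustment.

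The genes whose vehicle levels most resembled each of the 4 were sought among 8867 genes that averaged at least 1 CPM, by Pearson's r of the same centred values over the 10 vehicle libraries. For A1bg they were Btbd8 (r = 0.96), Tdp1 and Rangap1 (both r = 0.95). For Eci3 they were Umad1 (r = 0.95), Tspan12 and Sat2 (both r = 0.92). For Acss3 they were Ireb2 (r = 0.97), Rnf5 and Tmem19 (both r = 0.96), and for Olig1 Vrk3 (r = 0.97), Mpi (r = 0.96) and Eri1 (r = 0.93). Without Con.Sed replicate 2, over 9 libraries, the r of these 12 genes ran from 0.82 (Tspan12) to 0.97 (Vrk3). The values share libraries and depth, and with 10 libraries and 8867 candidates such values are a description. The fitted log2 changes of these 12 genes with OC lay between -0.36 and 0.65 over both activity groups.

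Related metabolic genes give the setting of Eci3 and Acss3. Over all genes tested, 16.3% were called in sedentary and 13.2% in running mice: 9.11% and 7.09% as higher, 7.2% and 6.06% as lower. The median log2 change over all genes was -0.01 and 0.01. With library totals alone as the scaling these medians were 0.10 and 0.12, and the calls that were higher made up 82.6% and 80.6%, against 55.9% and 53.9%. Of 17 other genes of peroxisomal beta-oxidation tested, 5 fell and 1, Nudt7, rose in sedentary mice, and 5 fell in running mice, with list medians of -0.20 and -0.41. The thioesterase Acot4 fell, with log2 changes of -1.23 (SE 0.23, adjusted p = 0.00113, edgeR) and -1.38 (SE 0.23, adjusted p = 0.00037), as did the thiolase Acaa1b, with -0.90 (SE 0.17, adjusted p = 0.00139) and -1.19 (SE 0.17, adjusted p = 9.78e-05). Crat, carnitine acetyltransferase, fell too, with -1.25 and -1.53. Leaving out each library in turn gave 4 to 6 falling genes in sedentary and 5 to 7 in running mice, and 0 to 1 rising gene in sedentary mice. Library totals alone gave 2 rising genes in running mice, where none was called otherwise. Acaa1a, Hsd17b4 and Acot8 of the same pathway did not pass in either group, all by edgeR.

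Of 8 other enoyl-CoA hydratase and isomerase genes tested, 1 rose and 1 fell in each activity group. Echdc3, an enoyl-CoA hydratase-like gene, rose by 0.61 (SE 0.10, adjusted p = 0.000465, edgeR) and 0.70 (SE 0.10, adjusted p = 0.000105). Eci1, the mitochondrial isomerase, fell, with -0.40 (SE 0.13, adjusted p = 0.0435, edgeR) and -0.47 (SE 0.13, adjusted p = 0.0226), calls that were lost in 12 and 6 of 25 alternatives. With library totals alone 0 genes of this list fell in either group and 2 rose in running mice. Its medians were -0.10 and -0.01.

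Of 13 other acyl-CoA synthetases tested, 1 fell in sedentary and 4 in running mice, with medians of -0.17 and -0.41. Acsf3, the mitochondrial malonyl-CoA synthetase, fell by 0.53 (SE 0.12, adjusted p = 0.00683, edgeR) in running mice and had 0.01 (SE 0.12, adjusted p = 0.981) in sedentary mice. Of 8 genes of propionate and valine breakdown 3 fell in sedentary and 2 in running mice, with medians of -0.29 and -0.25. Mmut, the methylmalonyl-CoA mutase at the end of the propionate route, did not pass (adjusted p = 0.728 and 0.0668). When each library was left out in turn, the falling synthetases numbered 0 to 2 in sedentary and 1 to 5 in running mice, and the falling propionate genes 2 to 3 and 0 to 3. With library totals alone as the scaling, 0 and 2 synthetases fell, 1 synthetase rose in sedentary mice, and 0 propionate genes fell in either activity group. With no filter on low counts 2 synthetases and 0 propionate genes fell in running mice; DESeq2 gave 6 and 4 and limma voom 2 and 1 there.

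Most female-biased genes tested, the class of A1bg, fell. Of 32 others on the list, only 10 had intact lines, and all 10 were tested. Of these, 8 fell in sedentary and 9 in running mice, none rose, and the medians were -1.46 and -1.38. The rest of the list was not seen. Hao2, a peroxisomal hydroxyacid oxidase, fell, with log2 changes of -2.47 (SE 0.37, adjusted p = 0.000144, edgeR) and -2.18 (SE 0.37, adjusted p = 0.000407). Acot3, a peroxisomal thioesterase, had -1.73 and -2.49, and Nipal1, a magnesium transporter, had -1.56 and -1.31, all 3 called in all 25 alternatives. Leaving out each library in turn gave 6 to 9 falling genes in sedentary and 7 to 9 in running mice. This list was drawn up with earlier results of these libraries known and is no independent support for the choice of A1bg.

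**Figure D5:**
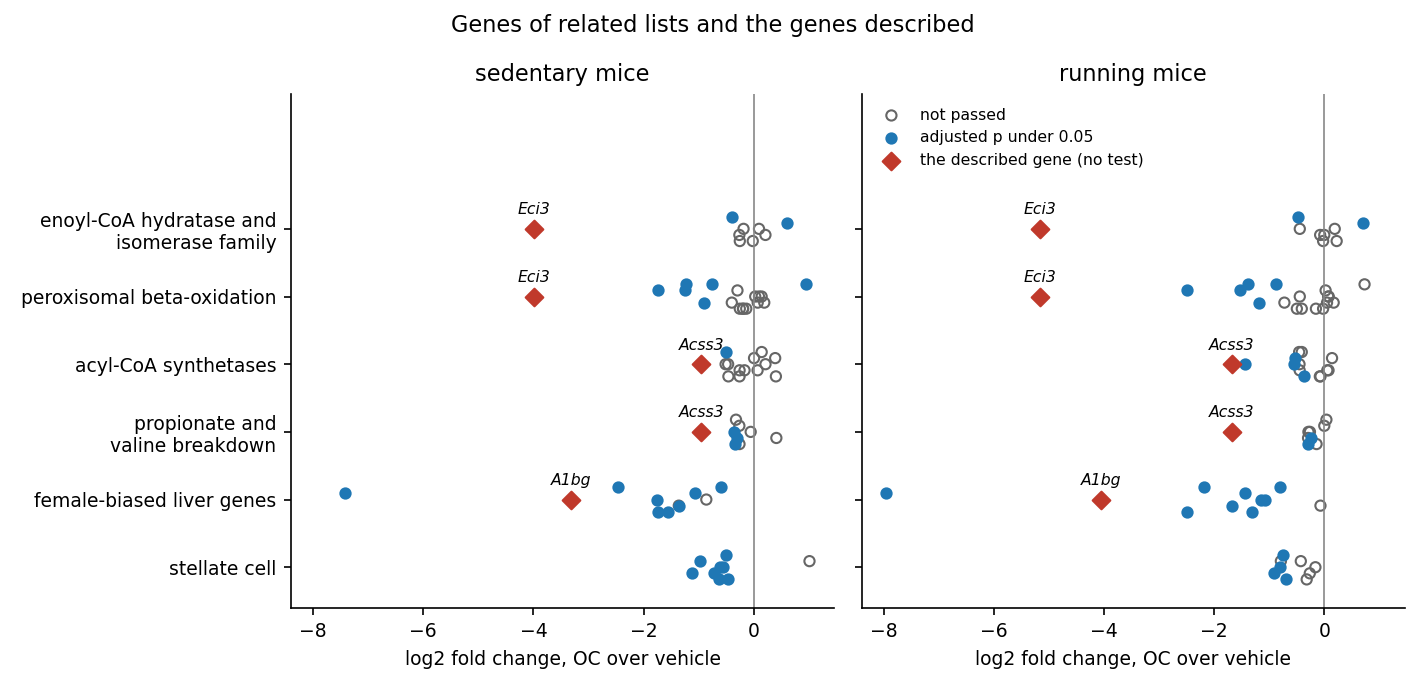
Fitted log2 fold change of OC over vehicle (x) for the tested genes of 6 lists (y), in sedentary (left) and running mice (right); filled circles passed the edgeR test, open circles did not, and diamonds are the described genes, which were not tested. Eci3 lies far below its relatives, Acss3 below the tested genes of its lists, and A1bg within the range of the female-biased genes.

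Some markers of liver cell types differed with the diet. Over all genes tested, 16.3% were called in sedentary and 13.2% in running mice, and 7.2% and 6.06% as lower. Of 9 intact stellate cell markers of 12, 8 fell in sedentary and 4 in running mice, with medians of -0.61 and -0.70; without Con.Sed replicate 2 the first count was 4. Leaving out other single libraries gave 2 to 8 and 2 to 5, and library totals alone as the scaling gave 3 and 2. None of the markers was at 0. Their summed level was 593 to 943 CPM in vehicle and 397 to 672 CPM in OC libraries. Of 9 hepatocyte markers 4 fell and 1 rose in sedentary mice, and 2 fell and 1 rose in running mice, with medians of -0.10 and -0.14; leaving out single libraries gave 2 to 4 and 1 to 2 falling markers, and library totals alone 3 and 1, with 2 rising in running mice. Alb, the albumin gene, fell, with -0.77 (SE 0.14, adjusted p = 0.00103, edgeR) and -0.79 (SE 0.14, adjusted p = 0.000869). The summed hepatocyte level was 149700 to 205700 CPM in vehicle and 91090 to 131800 CPM in OC libraries. Alb made up most of this sum, with means of 136800 and 124700 CPM in sedentary and running vehicle mice. Its means were 80020 and 72270 CPM in sedentary and running OC mice.

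Of 6 cholangiocyte markers tested 1, Krt23, fell in each activity group, of 3 lymphocyte markers 2 fell in sedentary and 1 in running mice, and of 7 macrophage markers 1 rose in sedentary mice. None of the 7 endothelial markers passed. The shares called over all genes tested were 16.3% in sedentary and 13.2% in running mice. The list medians in sedentary and running mice were -0.56 and -0.07 for cholangiocytes, -1.13 and -0.16 for lymphocytes, 0.07 and 0.14 for macrophages and -0.24 and -0.23 for endothelial cells. The falling lymphocyte markers numbered 1 to 2 and 0 to 1 when single libraries were left out. The summed cholangiocyte level was 53.0 to 165 CPM in vehicle and 51.5 to 112 CPM in OC libraries, and the lymphocyte level 2.86 to 8.90 and 1.75 to 4.20 CPM. The macrophage level was 255 to 439 CPM in vehicle and 305 to 467 CPM in OC libraries, and the endothelial level 230 to 351 and 197 to 354 CPM. The part of these cell types in the levels of the 4 genes was not tested.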

How the data were processed

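Per the labels' protocols, liver RNA of single mice was made into stranded paired-end libraries. Per the submitters' processing notes, the build was mm10 and STAR, R 4.05 and limma were used; the counting program, its strand setting and the annotation are not given in the sources used here. The deposited table holds counts per gene, read as estimated counts because 2 genes, not used, had values that were not whole; the design had assumed plain counts, and rounding changed no value used. Of its 35504 lines 11511 (32.4%) were left out, leaving 23993. They comprised 9824 lines with 1 in the table's first library and 0 elsewhere, and 806 and 570 others starting with 1. The rest were 309 lines classed as text in that library and 2 with values that were not whole. Lines with 1 or text there were taken to be displaced by commas in the gene description. This rule also drops a gene with a true count of 1 in that library. Positions are from GENCODE vM21 and sequences from RefSeq.

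Genes were kept by filterByExpr (10207 genes, 99.95% of counts), scaled by TMM and fitted with edgeR 4.0.16 in R 4.3.3, 1 mean per group over all 20 libraries. Benjamini-Hochberg adjustment ran over all genes tested, with a threshold of 0.05. Where no tool is named, an adjusted p is from edgeR. Log2 CPM used a prior count of 2. Intervals are 95%, and those of counts cover counting error only. Correlations used exact permutation within activity groups (14400 arrangements). The steps were tested on simulated data for running averaged over diet. Among 10207 genes, 53 of 67 changes of 1.5-fold, 62 of 67 of 2-fold and 66 of 66 of 4-fold were recovered. The changed genes were drawn at random, and no OC effect was simulated. The biological coefficient of variation was 0.827 for A1bg, 0.405 for Eci3 and 0.373 for Olig1, against 0.178 in common over all genes. The recovered shares therefore do not give the power for these 3 genes. Alternatives were DESeq2 size factors, library totals, no filter, DESeq2 1.42.0, limma 3.58.1 voom and each library left out.

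The 4 genes and 13 gene lists were chosen with earlier results of these data known. Other genes named are up to 4 called genes per list, contrast and direction with the smallest adjusted p, close paralogues, neighbours in the genome or in the order of change, and the 3 genes most like each of the 4. Cux2, Prom1, Nudt7 and uncalled list genes were named after their values were seen. Some genes within this rule are not reported here.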

Additional observations from a re-analysis of the deposited data

Results flagged for a closer look

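Of 16 sets of 5 values, 4 genes in 4 groups, 2 held a value far from the other 4 by Dixon's criterion, which flags about 1 set in 20 by chance. Both were of A1bg. In sedentary vehicle mice, replicate 2 had 106 CPM and the next highest library 14.7 CPM. In running OC mice, replicate 4 had 13.7 CPM and the next highest 1.76 CPM. In Con.Sed replicate 2, summed stellate markers were 942 CPM against 634 to 784 CPM in the other libraries of the group, cholangiocyte markers 165 against 53.0 to 98.4 CPM, and the other female-biased genes 602 against 1346 to 1884 CPM. In OC.VWR replicate 4, the other female-biased genes summed to 423 CPM against 159 to 304 CPM, and stellate markers to 397 against 410 to 616 CPM. The part of these differences in the A1bg values was not tested.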

How the results depend on the processing

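Of 1290 alternatives over 64 results, 1152 were scored as unchanged. This score did not always require the same sign or the same count. The Olig1 value for running on vehicle, 0.16, ran from -0.11 to 0.43, and all 23 of its alternatives were scored as unchanged. So were all 25 for the falling female-biased genes in sedentary mice, 8 in the main fit and 6 to 9 in the alternatives. No paired analysis was possible because the libraries' numbers were given in accession order and are not shared between groups. For running averaged over diet, DESeq2 made 2 calls, and leaving out each library gave 0 to 1. The calls for OC numbered 998 (without OC.Sed replicate 1) to 1794 in sedentary mice and 817 (without OC.VWR replicate 1) to 1679 in running mice, 835 without OC.VWR replicate 3.

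With each library left out in turn, the A1bg log2 values ran from -3.54 to -1.996 for OC in sedentary and from -5.87 to -3.52 in running mice, from 0.34 to 2.21 for running on vehicle, from -1.67 to 0.44 for running on OC, from -2.56 to -0.20 for the interaction and from -0.39 to 1.18 for running averaged over diet. Con.Sed replicate 2 and OC.VWR replicate 4 set the far ends: without the first, the interaction was -2.06, and without the second, -2.56. The Eci3 values ran from -4.79 to -3.55 for OC in sedentary mice, from -0.77 to 0.42 for running on OC and from -1.61 to -0.38 for the interaction, where OC.Sed replicate 5 set the end. The Acss3 and Olig1 values moved by less than their replicate spread in all alternatives run.

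Correlations on vehicle changed sign without the 2 libraries farthest from the median and without Con.Sed replicate 2, respectively: to 0.40 and 0.46 for A1bg and Eci3, to 0.68 and 0.79 for A1bg and Acss3, to 0.55 and 0.31 for Eci3 and Olig1, and to 0.54 and 0.41 for Acss3 and Olig1. On OC, that of Eci3 and Acss3 went from -0.0099 to 0.025 with a prior count of 0.5. The cause of these changes was not tested. Few counts limit the precision of Eci3 and Olig1 on the OC diet.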

Other observations

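Of the 5 nearest coding neighbours of the 4 genes that were tested, 1 passed the edgeR test. Myc, a growth-promoting transcription factor gene 1062379 bases from A1bg, rose in running mice, with a log2 change with OC of 2.40 (SE 0.72, adjusted p = 0.0306), and had 1.82 (SE 0.67, adjusted p = 0.0691) in sedentary mice. Its call in running mice was lost in 6 of 25 alternatives, without Con.VWR replicate 1, 2, 3 or 4 or OC.VWR replicate 3 or 5 (adjusted p up to 0.0787), and it was called in sedentary mice in 2 of 25, limma voom and without Con.Sed replicate 1. Ifnar2, an interferon receptor subunit 100850 bases from Olig1, had log2 changes with OC of 0.21 (SE 0.08, adjusted p = 0.0789) in sedentary and 0.23 (SE 0.08, adjusted p = 0.0681) in running mice. Lin7a, a scaffold protein gene 148018 bases from Acss3, had 0.11 (SE 0.20, adjusted p = 0.745) and -0.42 (SE 0.20, adjusted p = 0.165). 4933417A18Rik, which overlaps Eci3 on the other strand over 9262 bases, and Gm15966, which overlaps Olig1 over 157 bases, had 0 counts in all 20 libraries.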
